A study of Mus musculus with 384 samples.

Results

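The genes described here are 9 secreted proteins of the bone morphogenetic protein (BMP) pathway, 6 ligands (Bmp2, Bmp3, Bmp4, Bmp5, Bmp6 and Bmp7) and 3 antagonists (Grem1, Nog and Fstl1). They were chosen by name, as 9 of the 23422 genes in the count table, and all 9 were also among the 22276 genes of the filtered table. The study sorted single mesenchymal cells from adult mouse lung by reporters of Lgr5 and Lgr6 and sequenced full-length cDNA from each cell. Of the 4 mice, 2 carried Lgr5-CreERT2;R26-Tom, that is Lgr5-IRES-CreERT2 with a Rosa26-lox-stop-lox-TdTomato reporter, and their Tomato cells were sorted after tamoxifen. The other 2 carried Lgr6-EGFP-IRES-CreERT2, in which EGFP reports the Lgr6 locus, and their GFP cells were sorted. Cells of both lines were depleted of CD31, CD45, CD11b and TER119. An age is given for most experiments of the study and not for these mice in particular. A lineage label persists in descendants of a labelled cell, whereas the EGFP reports current activity of its locus. The line, its reporter, its plates and its mice cannot be told apart, and each line has 2 mice.

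BMPs are ligands of the transforming growth factor beta superfamily that assemble type I and type II receptor kinases, which phosphorylate Smad1, Smad5 and Smad9 and, with Smad4, switch on targets such as the Id genes. Noggin and gremlin bind the ligands outside the cell and keep them from their receptors, and BMP3 differs from most of the family in that it antagonizes BMP signaling through a type II receptor. In the lung, BMP4 takes part in branching and in the patterning of airway epithelium, and Fstl1, a secreted follistatin-like glycoprotein, is needed for formation of the trachea and alveoli.

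The files held 384 wells, of which 380 were single cells (95 per mouse) and 4 were pools of cells. The authors kept 29 and 28 single cells from Lgr5 mice 1 and 2, and 50 and 75 from Lgr6 mice 1 and 2. Values below come from these kept cells unless stated. Their counts summed to 9874249 and 13198680 in Lgr5 mice 1 and 2, and to 28875278 and 124650544 in Lgr6 mice 1 and 2. The median count per cell was 263129, 272729, 332588 and 1537593 in the same order, so that Lgr6 mouse 2 was the most deeply sequenced. A gene was called detected in a cell with a count above 0. Intervals given beside shares of cells are 95% (exact, Clopper-Pearson), and the limit given for a share of 0 is 3 over the number of cells. Because depth differed, shares were also counted with every cell reduced at random to 99000 reads, a depth that 1, 3, 13 and 2 cells did not reach. The reads came from PCR without molecular identifiers, so that intervals and floors cover counting error only. Levels are the mean over cells of TPM, the transcript share scaled for length, which can be compared between genes, and tests used counts summed per mouse.

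The genes that define the groups were measured first. Mean Lgr5 stood at 303 and 170 TPM for Lgr5 mice, against 5.39 and 42.9 for Lgr6 mice, and mean Lgr6 was 18.95 and 22.97 against 26.3 and 34.5 TPM. Lgr5 thus lay far apart between the lines, while Lgr6 mRNA was low in every mouse. Pdgfra, a receptor of alveolar and other fibroblasts, was detected in 27 cells (6, 3, 7 and 11), of which 10 had 1 to 3 counts. Acta2, the smooth muscle actin, stood at a log2(TPM + 1) of 11 or more in 66 cells (1, 0, 27 and 38), called Acta2-high here, and the rest are called Acta2-lower. Of the Lgr6 cells, 26 lay within 1 of that threshold, and 6 Lgr5 cells lay between 10 and 11. The groups shared 4 cells that were Pdgfra-detected and Acta2-high.

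Marker lists placed the sort as follows. All 6 general mesenchyme markers were present in every mouse, with summed means of 3238, 4166, 3929 and 3493 TPM and Vim or Dcn as the most abundant. The authors kept only cells with Pecam1 and Ptprc below a TPM of 1, so that low values of these 2 genes follow from that filter. The endothelial and immune lists summed to at most 15.05 and 14.1 TPM, with Cd3e at 0 in all 4 mice. The mesothelial list summed to at most 3.47 TPM and the alveolar type I list to 97.03, 163.03, 113.7 and 128.4, with Ager on top. The pericyte list summed to 386, 222, 602 and 582 TPM, most of it Kcnj8, with Notch3 and Higd1b at 0 in both Lgr6 mice. Markers of alveolar type II and other epithelium were present in each mouse, with summed means of 22799, 30168, 21572 and 18420 TPM, led by Sftpc. Erythroid markers differed between the lines, with 2340 and 3010 TPM in the Lgr5 mice, most of it Hbb-bh1, against 2.40 and 9.03 in the Lgr6 mice. Club cell markers also differed, at 3630 and 1485 TPM against 244 and 103.6, led by Scgb1a1, with Scgb3a2 at 0 in the Lgr6 mice. Airway smooth muscle markers were lower in the Lgr5 mice, at 2744 and 1033 TPM against 13794 and 13424. Alveolar fibroblast markers were also lower in the Lgr5 mice, at 118.7 and 90.8 TPM against 279 and 216, led by Npnt.

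Ranked by the mean of the 4 mouse means, Fstl1 was the most abundant of the 9 genes, with 425 ± 97.8 TPM (SD, n = 4), followed by Bmp5 with 166.5 ± 53.6, Bmp3 with 110 ± 125.9 and Bmp4 with 51.2 ± 26.8. Bmp2 followed with 12.1 ± 7.23 TPM, Grem1 with 6.67 ± 6.18, Bmp7 with 6.49 ± 7.49, Nog with 3.13 ± 2.23 and Bmp6 with 0.0018. Fstl1 was above Bmp5 in 4 of 4 mice, and Bmp4 above Bmp2 and Bmp2 above Grem1 in 4 of 4. Bmp5 and Bmp3, and Bmp3 and Bmp4, changed places between the lines, each pair being in the order given in 2 of 4 mice. Grem1, Bmp7 and Nog could not be ordered, each being found in few cells. The plot of the 9 genes by mouse shows these levels over the share of cells in which each gene was detected.

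**Figure D1:**
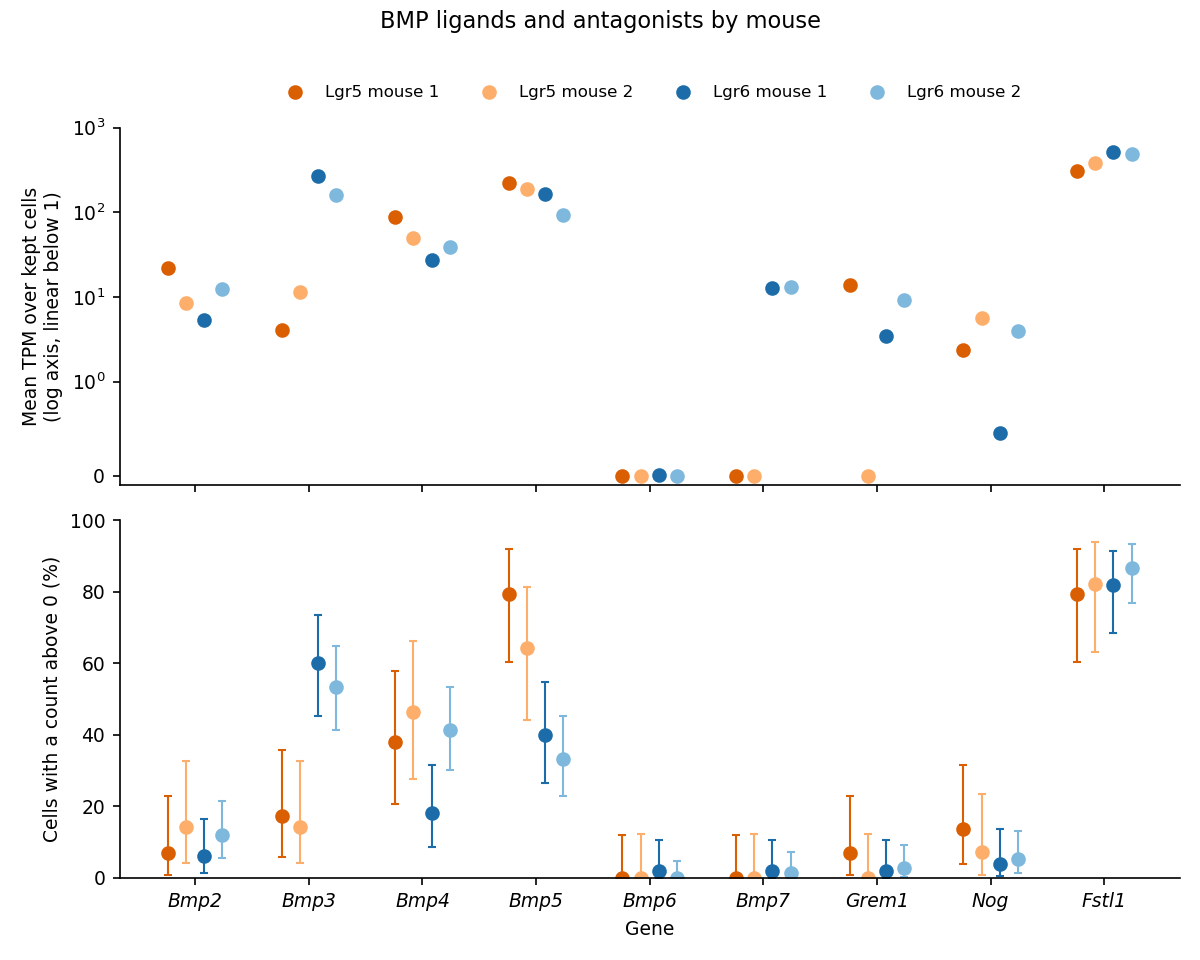
Mean TPM over kept cells (top, log axis that is linear below 1) and percent of kept cells with a count above 0 (bottom, bars are exact 95% intervals) of the 9 genes in the 4 mice. Bmp3 sits at 266 and 158.8 TPM for the Lgr6 mice and at 4.04 and 11.4 for the Lgr5 mice, and Fstl1 is above 300 TPM in every mouse.

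Among the members found in 4 or more cells of every mouse (Bmp3, Bmp4, Bmp5 and Fstl1), Bmp3 had the largest fold change between the lines. This ligand, encoded on mouse chromosome 5 (98854415 to 98884396 on GRCm38), averaged 4.04 and 11.4 TPM in the Lgr5 mice and 266 and 158.8 TPM in the Lgr6 mice. Both Lgr6 mice were above both Lgr5 mice, with line means of 212 ± 75.6 and 7.72 ± 5.19 TPM (SD, n = 2 mice each). Bmp3 was detected in 5 of 29 Lgr5 cells of mouse 1 (17.2%, 5.85 to 35.8) and 4 of 28 of mouse 2 (14.3%, 4.03 to 32.7), against 30 of 50 Lgr6 cells of mouse 1 (60%, 45.2 to 73.6) and 40 of 75 of mouse 2 (53.3%, 41.4 to 64.9). After thinning, Bmp3 was in 4 of 28 (14.3%, 4.03 to 32.7) and 3 of 25 (12%, 2.55 to 31.2) cells of the Lgr5 mice. It was in 19 of 37 (51.4%, 34.4 to 68.1) and 30 of 73 (41.1%, 29.7 to 53.2) cells of the Lgr6 mice. Both Lgr6 shares stayed above both Lgr5 shares, but the interval of Lgr6 mouse 2 then overlapped those of the Lgr5 mice. A single cell held 97.96% of the Bmp3 counts of Lgr5 mouse 2. On summed counts, Bmp3 was higher in the Lgr6 mice by a log2 fold change of 2.80 ± 1.03 (SE), with an adjusted p of 0.450 over all genes, and it did not pass the threshold. The fold change was 5.24 without Lgr5 mouse 2, 1.94 without Lgr5 mouse 1 and 4.30 with thinned cells.

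Bmp5, a ligand on chromosome 9 (75775364 to 75900310), was the most abundant ligand in the Lgr5 mice. Its mean was 219 and 188.7 TPM in the Lgr5 mice and 164.8 and 93.4 TPM in the Lgr6 mice, so that the Lgr6 mice were both lower, with line means of 204 ± 21.6 and 129.1 ± 50.4 TPM (SD, n = 2 mice each). Among Lgr5 cells it was detected in 23 of 29 (79.3%, 60.3 to 92.01) and 18 of 28 (64.3%, 44.1 to 81.4), and among Lgr6 cells in 20 of 50 (40%, 26.4 to 54.8) and 25 of 75 (33.3%, 22.9 to 45.2). After thinning these shares were 22 of 28, 15 of 25, 13 of 37 and 22 of 73. The log2 fold change of summed counts was -0.39 ± 0.57 (SE), Lgr6 over Lgr5, with an adjusted p of 0.879. It was 0.08 without Lgr5 mouse 1 and -0.83 without Lgr5 mouse 2. With thinned cells it was -1.05 ± 0.37 (SE), and without cells that held Epcam or Sftpc at a TPM above 1 it was -0.88.

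Bmp4, on chromosome 14 (46383520 to 46390669), averaged 88.8 and 50.3 TPM in the Lgr5 mice and 26.99 and 38.6 TPM in the Lgr6 mice. Both Lgr6 mice were lower, but the share of cells overlapped between the lines, with 11 of 29, 13 of 28, 9 of 50 and 31 of 75 cells. After thinning, 6 of 28 and 9 of 25 Lgr5 cells held Bmp4, against 5 of 37 and 12 of 73 Lgr6 cells, the share in Lgr6 mouse 2 being the one that depended most on depth. The log2 fold change was -0.42 ± 0.74 (SE, adjusted p 0.902), and 0.08 without Lgr5 mouse 1. Of the Bmp4 cells, 8 of 11, 10 of 13, 4 of 9 and 12 of 31 also held Epcam or Sftpc at a TPM above 1, compared with 19 of 29, 12 of 28, 9 of 50 and 24 of 75 of all cells, and without such cells the fold change turned to 1.12. Bmp2, a ligand on chromosome 2 (133552159 to 133562885), was found in 2, 4, 3 and 9 cells, and its means of 22.01, 8.42, 5.40 and 12.5 TPM overlapped between the lines. In Lgr5 mouse 1 a single cell held 93.5% of the Bmp2 counts, and in Lgr6 mouse 1 another held 86.3%. The Bmp2 log2 fold change of -0.49 ± 1.35 (SE) became 1.57 without Lgr5 mouse 1. Of the Bmp2 cells, 2 of 2, 1 of 4, 2 of 3 and 5 of 9 also held Epcam or Sftpc, and without such cells the fold change was 0.91.

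Bmp6 and Bmp7 were close to absent from the kept cells. Bmp6, on chromosome 13 (38345107 to 38500302), had 2 counts in 1 cell of Lgr6 mouse 1 and was too low to be tested. It was found in 0 of 29 and 0 of 28 Lgr5 cells, which allows a share of up to 10.3% and 10.7%, and in 0 of 75 cells of Lgr6 mouse 2, which allows up to 4%. Bmp7, on chromosome 2 (172868012 to 172940321), was found in 1 cell of each Lgr6 mouse and in no Lgr5 cell, with 2002 counts (634 TPM) and 1728 counts (995 TPM). Summed over the lines, Bmp7 counts per total were 186.9-fold higher in the Lgr6 mice, with 3 counts set for the Lgr5 cells. That ratio is of reads and sets no lower limit over cells. By cells, 0 of 29 and 0 of 28 allow a Lgr5 share of up to 10.3% and 10.7%. The direction is thus not settled by those 2 cells. Both were Pdgfra-detected and Acta2-lower, and both held Fstl1 (460 and 1496 TPM) and Bmp5 (121.2 and 114.6 TPM). The first also held Bmp4, at 244 TPM.

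Among the antagonists, Fstl1, on chromosome 16 (37776873 to 37836514), was found in most cells of every mouse. Its mean was 307 and 386 TPM in the Lgr5 mice and 522 and 487 TPM in the Lgr6 mice, and it was detected in 79.3%, 82.1%, 82% and 86.7% of cells. Both Lgr6 mice were higher in level, while the shares did not separate the lines. The log2 fold change was 0.46 ± 0.37 (SE, adjusted p 0.774). It ranged from 0.24 to 0.64 with a mouse left out, and was 0.16 with thinned cells, 0.16 without Epcam or Sftpc cells and 1.76 with all wells. Grem1, the gene of gremlin, on chromosome 2 (113746164 to 113758646), was found in 2, 0, 1 and 2 cells, with means of 14.004, 0, 3.48 and 9.18 TPM. Nog, the gene of noggin, on chromosome 11 (89300638 to 89302332), was found in 4, 2, 2 and 4 cells, with means of 2.39, 5.67, 0.46 and 3.99 TPM. Both genes were thus rare in both lines, and their means overlapped. The direction of Grem1 turned without Lgr5 mouse 2, from a log2 fold change of 0.62 to -0.47, and that of Nog without Lgr6 mouse 2, from 0.80 to -0.46.

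Between the lines, 0 of the 8 members tested passed an adjusted p of 0.05 with edgeR, against 0% of all 14086 genes tested. At an unadjusted p under 0.05 there were 2 members, Bmp3 and Bmp7, and 1312 genes (9.31%). Bmp7 was at 0 in the Lgr5 mice and entered the test only through 1 cell of each Lgr6 mouse, so that its p carries no weight here or in the other fits. DESeq2 called 963 genes (4.88%) and 1 member, Bmp7, while limma on the mean log2(TPM + 1) over cells called 1020 genes (10.3%) and 2 members, with Bmp3 higher and Bmp5 lower in the Lgr6 mice. Without a filter on low counts edgeR called 408 genes (2.07%), Bmp3 and Bmp7 among them, and over all single-cell wells 0.738% of 17743 genes with Bmp3. Leaving out a mouse leaves 1 mouse in its line and takes the spread from the 2 mice of the other, so that only fold changes are given. With 2 mice against 2, an exact permutation test cannot go below a p of 0.333.

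Within the Lgr6 mice, Bmp3 and Bmp5 were present on both sides of the Acta2 threshold and differed in level between them. Bmp3 averaged 387 and 243 TPM in Acta2-high cells of Lgr6 mice 1 and 2, and 123.3 and 72.6 TPM in their Acta2-lower cells. Its mean was thus 3.14-fold and 3.34-fold higher in Acta2-high cells of the same mouse, and both Acta2-high means lay above both Acta2-lower means. It was detected in 19 of 27 (70.4%, 49.8 to 86.2) and 25 of 38 (65.8%, 48.6 to 80.4) Acta2-high cells, and in 11 of 23 (47.8%, 26.8 to 69.4) and 15 of 37 (40.5%, 24.8 to 57.9) Acta2-lower cells. After thinning the counts were 14 of 21 and 20 of 37 against 5 of 16 and 10 of 36. The log2 fold change of summed counts was 1.83 ± 0.53 (SE, adjusted p 0.602), higher in 2 of 2 mice, with values of 1.41 and 2.24 in the single mice. In the Lgr6 mice it was 1.83 ± 0.64 with a threshold of 12 and 1.30 ± 0.52 with a threshold of 10, the latter fit chosen after seeing the data. With a threshold of 10 both Lgr5 mice also had 3 or more cells on each side, and over the 4 mice it was 0.03 ± 1.78, where threshold and mice changed together.

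Bmp5 ran the other way. It averaged 53.8 and 34.6 TPM in Acta2-high cells and 295 and 153.9 TPM in Acta2-lower cells of Lgr6 mice 1 and 2. The Acta2-lower means were 5.48-fold and 4.45-fold higher, and each was above both Acta2-high means. Bmp5 was detected in 7 of 27 (25.9%, 11.1 to 46.3) and 6 of 38 (15.8%, 6.02 to 31.3) Acta2-high cells and in 13 of 23 (56.5%, 34.5 to 76.8) and 19 of 37 (51.4%, 34.4 to 68.1) Acta2-lower cells. After thinning these were 5 of 21 and 6 of 37 against 8 of 16 and 16 of 36. The log2 fold change, Acta2-high over lower, was -2.35 ± 0.58 (SE, adjusted p 0.602), with -2.54 and -2.18 in the single mice. With a threshold of 10 it was -1.39 ± 0.67 over the 4 mice and -2.18 ± 0.59 in the Lgr6 mice, and with a threshold of 12 it was -3.98 ± 1.46.

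Fstl1, in contrast to the other antagonists, was abundant on either side of the threshold. It averaged 720 and 589 TPM in Acta2-high cells and 289 and 381 TPM in Acta2-lower cells, both high means lying above both lower means. Its share was 25 of 27 and 37 of 38 cells against 16 of 23 and 28 of 37, and its log2 fold change was 0.71 ± 0.33 (SE, adjusted p 0.785). It was 0.35 with a threshold of 12, 0.77 with a threshold of 10 in the Lgr6 mice and 0.20 with that threshold over the 4 mice. Bmp4 differed between the mice. It was found in 0 of 27 Acta2-high cells of Lgr6 mouse 1, which allows a share of up to 11.1%, and in 9 of 23 Acta2-lower cells, at least 776-fold more in counts per total. In Lgr6 mouse 2 it was found in 17 of 38 and 14 of 37 cells, with means of 32.1 and 45.1 TPM. That order of shares turned after thinning, to 5 of 37 and 7 of 36, and many of these counts stood beside a TPM of 1 or less, with 9 and 7 cells above 1. The fitted log2 fold change of -5.46 ± 4.91 (SE) rested on Lgr6 mouse 1, and was -0.41 without it.

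The rare members fell on 1 side or the other in few cells. In the Lgr6 mice, Grem1 was found in 3 cells, all Acta2-high. With 3 counts set for the Acta2-lower cells, its counts per total were 170.7-fold higher in Acta2-high cells. That ratio is of reads, and 3 cells do not settle the direction. The 3 cells stood at an Acta2 log2 of 11.03, 11.87 and 13.9, the second held 454 of the 578 counts, and with a threshold of 12 the direction turned, to a log2 fold change of -4.97. In Lgr5 mouse 1 both Grem1 cells were Acta2-lower. Nog was found in 2 and 3 Acta2-high cells and 0 and 1 Acta2-lower cells of the Lgr6 mice, and its log2 fold change of 3.75 ± 2.42 (SE) turned to -0.67 with a threshold of 12. Bmp7 was found in Acta2-lower cells alone, in the 2 cells described above. Its counts per total were 1403-fold higher with 3 counts set for the Acta2-high cells, again a ratio of reads that does not settle the direction. Bmp2 averaged 3.79 and 4.43 TPM in Acta2-high cells and 7.28 and 20.8 TPM in Acta2-lower cells, from 3 and 9 cells. Its levels were thus lower in Acta2-high cells of both mice, while its summed counts gave a log2 fold change of 0.28 ± 1.98 (SE) in the other direction, which was -1.31 without Lgr6 mouse 1.

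**Figure D2:**
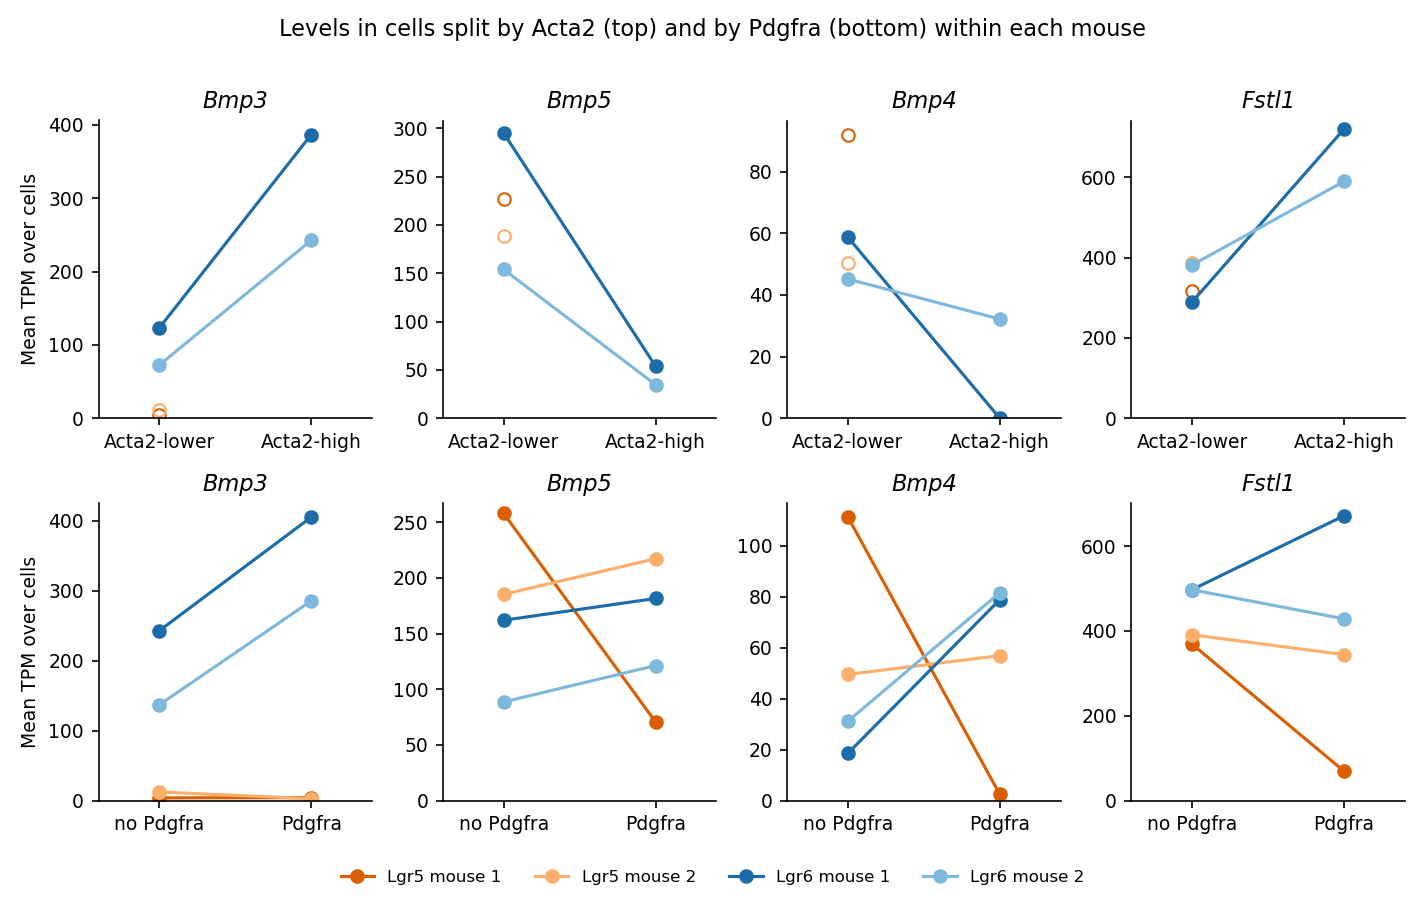
Mean TPM over cells of Bmp3, Bmp5, Bmp4 and Fstl1 in Acta2-lower and Acta2-high cells (top; open circles are Lgr5 mice, which had 1 and 0 Acta2-high cells) and in cells without and with Pdgfra (bottom), with lines joining the groups of each mouse. Bmp3 is 387 and 243 TPM in Acta2-high cells against 123.3 and 72.6 in Acta2-lower cells, and Bmp5 is 53.8 and 34.6 against 295 and 153.9.

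By Acta2 level, 0 of the 8 members tested passed an adjusted p of 0.05 with edgeR, against 0.0296% of all genes (4 of 13529). The 4 were Acta2, on which the groups were formed, and the surfactant genes Sftpc, Sftpa1 and Sftpd, lower in Acta2-high cells. At an unadjusted p under 0.05 there were 1039 genes (7.68%) and 4 members, with Bmp3 and Grem1 higher and Bmp5 and Bmp7 lower in Acta2-high cells. Of these, Grem1 and Bmp7 were at 0 on the other side and entered the test only through 3 and 2 cells, so that their p carry no weight, which leaves Bmp3 and Bmp5. DESeq2 called 950 genes (5.58%) and 3 members, with Grem1 higher and Bmp4 and Bmp7 lower. The limma fit of mean log2 values called 753 genes (7.82%) and 3 members, with Bmp3 and Fstl1 higher and Bmp5 lower, and edgeR without a filter on low counts called 5 genes (0.0294%) and 0 members. The comparison rests on 2 mice of 1 line, since 0 Lgr5 mice had 3 or more cells on each side of this threshold, and whether it differs between the lines was not tested.

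Epithelial markers moved with Acta2 level. All 8 markers of alveolar type II and other epithelium were present in Acta2-lower Lgr6 cells, with summed means of 46857 and 37312 TPM, most of it Sftpc (42686 and 33956). In Acta2-high cells 4 of 8 had a mean above 1 TPM, with sums of 33.97 and 24.6, led by Abca3, and Epcam and Lamp3 were at 0. Alveolar fibroblast markers ran the same way, at 517 and 394 TPM in Acta2-lower cells and 76.2 and 42.9 in Acta2-high cells, with Npnt on top and Wnt2 and Vcam1 at 0 in the latter. Airway smooth muscle markers ran the other way, with 24360 and 24857 TPM in Acta2-high and 1390 and 1682 in Acta2-lower cells, Acta2 included. Without the 9 and 24 cells of Lgr6 mice 1 and 2 that held Epcam or Sftpc, the log2 fold change was 1.499 for Bmp3, -2.89 for Bmp5 and 0.60 for Fstl1, in the same directions as with them, and 0 genes were called. Median depth differed in Lgr6 mouse 1, with 418813 counts per Acta2-high cell and 165685 per Acta2-lower cell, and less in mouse 2, with 1546057 and 1511706.

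Since Acta2-high cells were nearly all from the Lgr6 mice, the lines were also compared in Acta2-lower cells alone, a comparison chosen after seeing the data. There Bmp3 averaged 3.67 and 11.4 TPM in Lgr5 mice against 123.3 and 72.6 in Lgr6 mice, still without overlap. Bmp5 averaged 227 and 188.7 TPM in Lgr5 mice against 295 and 153.9 in Lgr6 mice, which overlapped. Fstl1 overlapped as well, with 317 and 386 against 289 and 381 TPM, and Bmp4 was 91.9 and 50.3 against 58.7 and 45.1. The log2 fold changes on summed counts were 1.66 ± 1.18 (SE) for Bmp3, 0.56 ± 0.69 for Bmp5, 0.66 ± 0.97 for Bmp4 and 0.02 ± 0.47 for Fstl1. The signs of Bmp5 and Bmp4 were thus opposite to those over all cells, and edgeR called 0 genes, with 976 at an unadjusted p under 0.05. In these cells alveolar fibroblast markers also differed, at 122.8 and 90.8 TPM in Lgr5 mice against 517 and 394 in Lgr6 mice. Markers of alveolar type II and other epithelium did so too, at 23612 and 30168 against 46857 and 37312 TPM.

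**Figure D3:**
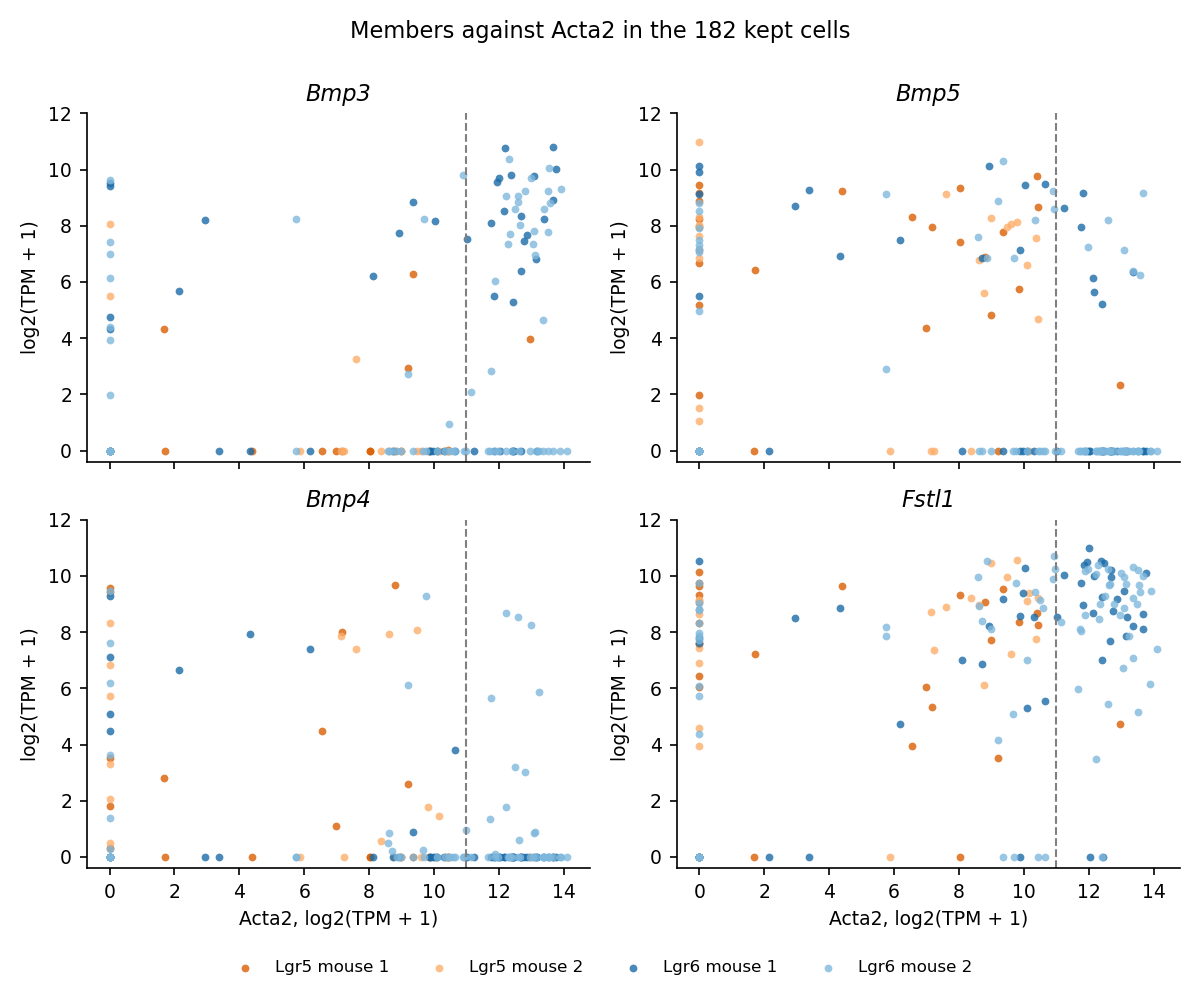
Log2(TPM + 1) of Bmp3, Bmp5, Bmp4 and Fstl1 in each kept cell (vertical axes) against that of Acta2 (horizontal axes), coloured by mouse, with the threshold of 11 dashed. Right of the threshold Bmp3 is above 0 in 25 of 38 cells of Lgr6 mouse 2 and Bmp5 in 6 of 38. The Lgr5 mice have 1 and 0 cells there, so that nearly all their cells lie left of it, with or without Bmp5.

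Within each mouse, cells in which Pdgfra was detected were set against its remaining cells. Bmp3 was detected in 2 of 6, 1 of 3, 5 of 7 and 8 of 11 Pdgfra cells and in 3 of 23, 3 of 25, 25 of 43 and 32 of 64 other cells. The share was larger among Pdgfra cells in 4 of 4 mice, and it was so after thinning as well, with 2 of 6, 1 of 3, 3 of 4 and 8 of 11 against 2 of 22, 2 of 22, 16 of 33 and 22 of 62. Its mean was 4.31, 2.82, 405 and 286 TPM in Pdgfra cells and 3.97, 12.4, 243 and 137.03 TPM in the others, higher in 3 of 4 mice, while the log2 fold change of summed counts was -0.72 ± 1.003 (SE). That value became 0.15 without Lgr5 mouse 2 and 0.52 in the Lgr6 mice alone. Before thinning, Pdgfra cells also had more genes detected in 4 of 4 mice. The medians were 5041.5, 5668, 3417 and 4384 genes, against 4138, 3554, 3046 and 3619 in the other cells. Whether the larger Bmp3 share goes with this was not tested.

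Bmp5 averaged 70.7, 217, 181.6 and 121.4 TPM in Pdgfra cells and 258, 185.3, 162.03 and 88.6 TPM in the others. It was higher in Pdgfra cells of 3 mice and lower in Lgr5 mouse 1, and the groups overlapped (log2 fold change 0.20 ± 0.72, SE). Without Lgr6 mouse 2 the sign turned, to -0.22. Bmp4 averaged 2.44, 56.9, 78.8 and 81.6 TPM in Pdgfra cells and 111.3, 49.5, 18.6 and 31.2 TPM in the others. It was higher in Pdgfra cells of both Lgr6 mice and far lower in those of Lgr5 mouse 1, with a log2 fold change of 0.43 ± 1.56 (SE). A single Pdgfra cell held 98.2%, 99.04% and 80.5% of the Bmp4 counts of the Pdgfra cells of Lgr5 mouse 2 and Lgr6 mice 1 and 2. The log2 fold change became -0.80 without Lgr6 mouse 1, -0.35 without Lgr6 mouse 2 and -1.08 without the 2 Bmp7 cells, the last chosen after seeing the data.

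Fstl1 averaged 69.5, 344, 671 and 428 TPM in Pdgfra cells and 369, 391, 497 and 497 TPM in the others. It was lower among Pdgfra cells of 3 mice and higher in Lgr6 mouse 1, with a log2 fold change of -0.54 ± 0.64 (SE), which was 0.01 without Lgr5 mouse 1. Bmp7 was found in Pdgfra cells alone, 1 in each Lgr6 mouse. With 3 counts set for the other cells, its counts per total were 5882-fold higher in Pdgfra cells, a ratio of reads from those 2 cells. Grem1 was found in 0 of 27 Pdgfra cells, Nog in 1 and Bmp2 in 2. Grem1 and Nog were thus too rare to test, and Bmp2 had a log2 fold change of -2.52 ± 3.65 (SE), from 2 Pdgfra cells.

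By Pdgfra detection, 0 of the 5 members tested passed an adjusted p of 0.05 with edgeR, against 0.0353% of all genes (4 of 11327). The 4 were Pdgfra itself, Hsd11b1 and Lamb1, higher in Pdgfra cells, and Lyz2, lower, and they are named after their values were seen. At an unadjusted p under 0.05 there were 728 genes (6.43%) and 0 members, and limma on mean log2 values called 76 genes (0.632%) and 0 members. Without a filter on low counts edgeR called 0 members and 6 genes (0.0304%), while DESeq2 called 754 genes (3.82%) and 1 member, Bmp7. The median log2 fold change over all genes tested was -0.67. Leaving out Lgr6 mouse 2 gave 2 genes and leaving out Lgr6 mouse 1 gave 6. The alveolar fibroblast markers, Pdgfra included, summed to 523, 661, 1579 and 1292 TPM in Pdgfra cells and 13.2, 22.4, 67.6 and 31.1 in the others. Alveolar type II and other epithelial markers ran the other way, with 293, 355, 5307 and 16.5 TPM in Pdgfra cells against 28670.3, 33745, 24220.2 and 21583 in the others, and so did airway smooth muscle markers, with 632, 745, 3914 and 6085 against 3295, 1067, 15402 and 14685. Club cell markers were higher in Pdgfra cells of 3 mice, with 8031, 3734, 51.7 and 453 TPM against 2481, 1216, 275 and 43.6. Without Epcam or Sftpc cells, which left the Lgr6 mice, 0 members were called as well, and the part of these cells in the values of the 4 mice remains unknown. An exact sign-flip test over 4 mice cannot go below a p of 0.125.

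**Figure D4:**
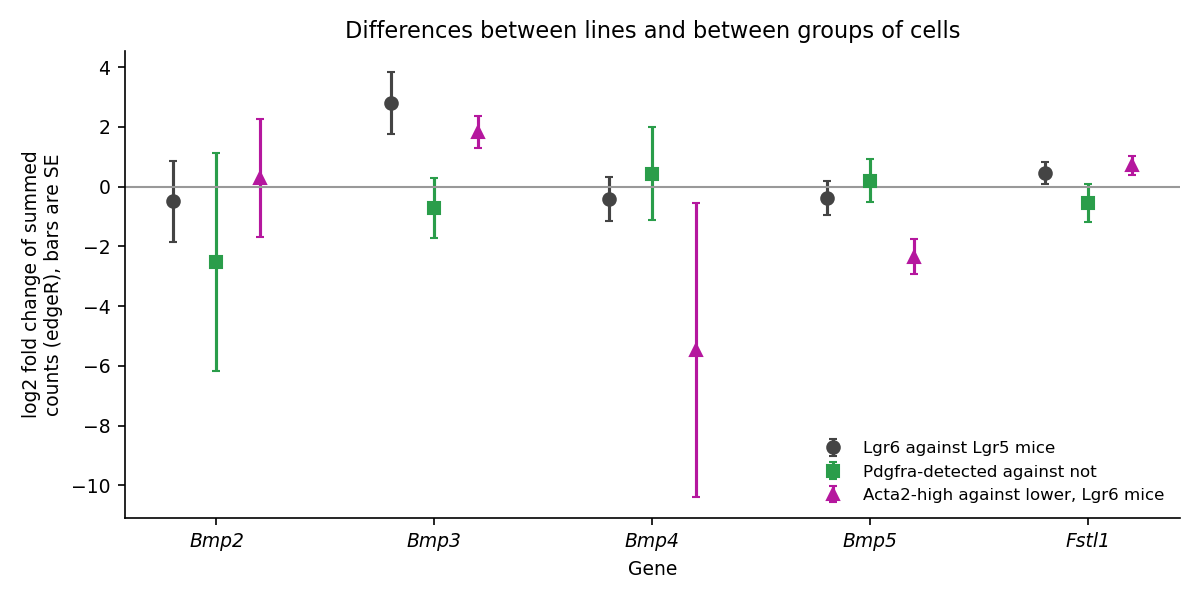
Log2 fold changes of summed counts fitted by edgeR for the 5 genes tested in all 3 comparisons, with bars of 1 SE. Bmp3 lies at 2.80 between the lines and 1.83 by Acta2 level, Bmp5 at -2.35 by Acta2 level, and none passed the threshold.

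The difference between the lines in the Pdgfra contrast was tested directly as an interaction. With edgeR, 0 of 8 members passed, against 0.00712% of all genes (1 of 14042, Inmt, named after its value was seen). At an unadjusted p under 0.05 there were 531 genes (3.78%) and 1 member, Fstl1, and DESeq2 called 305 genes (1.55%) and 1 member, Bmp7. The log2 difference, Lgr6 minus Lgr5, was 2.44 ± 0.82 (SE) for Fstl1 and 5.13 ± 2.50 for Bmp4, each with an adjusted p of 1.

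Whether the ligands lay in the same cells was counted at a TPM above 1. In Lgr6 mouse 1, 10 cells held Bmp3 and Bmp5, 19 Bmp3 alone, 10 Bmp5 alone and 11 neither, where the product of the shares gives 11.6 cells with both. In Lgr6 mouse 2 the counts were 12, 22, 12 and 29, with 10.9 from the product. The 2 ligands were thus found together about as often as the shares alone give. In the Lgr5 mice Bmp5 was the ligand found without the other, in 21 and 16 cells, with Bmp3 alone in 2 and 1. Across all kept cells, after each mouse's mean was taken off, the Pearson r of log2(TPM + 1) was -0.03 between Bmp3 and Bmp5, 0.17 between Bmp3 and Acta2, -0.16 between Bmp5 and Acta2 and 0.39 between Fstl1 and Acta2. These r describe cells that share mice and depth, and weak values are no finding. Among 9089 other genes, those most like Fstl1 were Sparcl1 (r 0.54), Sod3 (0.53) and Bgn (0.52). For Bmp3, Bmp4 and Bmp5 no gene reached an r of 0.5.

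The other genes of the pathway were followed in 5 lists of 53 genes. Between the lines 39 could be tested, by Pdgfra detection 32 and by Acta2 level 41, and 0 passed in any of the 3 comparisons with edgeR. At an unadjusted p under 0.05 there were 6 (4 higher and 2 lower in the Lgr6 mice), 4 (1 higher and 3 lower in Pdgfra cells) and 5 (2 higher and 3 lower in Acta2-high cells), where all genes tested gave 9.31%, 6.43% and 7.68%. Of these, 2 between the lines and 2 by Acta2 level were at 0 in 1 of the groups and entered the test only through the other, so that the counts are no support for a difference of the lists.

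Of the other ligands, the most abundant were Gdf10 (2.43, 20.6, 49.3 and 15.4 TPM) and Inhba, a subunit of activin (11.1, 9.07, 23.8 and 20.99 TPM). Both stayed below Bmp5 in every mouse. Gdf10, found in 1, 3, 5 and 4 cells, overlapped between the lines, while Inhba, found in 3, 3, 4 and 7 cells, was higher in both Lgr6 mice. Among the other antagonists, Twsg1, which binds BMPs together with chordin, averaged 142.2, 239, 408 and 309 TPM. It was higher in both Lgr6 mice and exceeded Grem1 and Nog in each mouse.

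Among receptors and co-receptors, Tgfbr3 (betaglycan) averaged 176.4, 279, 148.6 and 154.7 TPM and Eng (endoglin) 104.3, 144.1, 59.7 and 76.4 TPM. Both were higher in both Lgr5 mice. The transducers Smad4 (4.84, 29.7, 17.5 and 29.3 TPM) and Smad5 (19.4, 17.2, 23.7 and 13.5 TPM) were lower and overlapped between the lines. Of the targets, Id3 stood out, with 4703 and 4844 TPM in the Lgr5 mice and 778 and 967 TPM in the Lgr6 mice. The Lgr5 mice were both far above the Lgr6 mice, with a log2 fold change of -2.66 ± 0.37 (SE, adjusted p 0.327), in 28 of 29, 24 of 28, 27 of 50 and 39 of 75 cells. In Acta2-lower cells the values were 4862 and 4844 against 784 and 1214 TPM, again without overlap. Id2 averaged 96.5, 70.7, 93.3 and 154.9 TPM, which overlapped. Of these named genes none passed the threshold with edgeR in any comparison.

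Bmp6 was more often found in wells that the authors removed, which numbered 66, 67, 45 and 20 in the 4 mice. In the Lgr5 mice it was detected in 32 of 66 and 20 of 67 removed wells, against 0 of 29 and 0 of 28 kept cells. Among removed wells with Pecam1, an endothelial marker, at a TPM of 1 or more, it was found in 31 of 42 (73.8%, 57.96 to 86.1) and 20 of 41 (48.8%, 32.9 to 64.9). Among those below it was found in 1 of 24 and 0 of 26. Wells below had median totals of 236581 and 120015.5 counts, against 292681 and 209217 with Pecam1. Of the 26, 17 held neither Pecam1 nor Ptprc at that level, with a median total of 27 counts. The Bmp6 wells of the Lgr5 mice were thus nearly all wells with Pecam1, at a mean of 25.6 and 24.4 TPM of Bmp6, and such wells could not be among the kept cells. Of the 32 and 20 Bmp6 wells, 26 and 13 also held Ptprc, an immune marker, at a TPM of 1 or more. In the Lgr6 mice 0 removed wells held Pecam1 at that level and 0 held Bmp6. Removed Lgr6 wells had median totals of 11271 and 439578.5 counts. Bmp3 was also in a larger share of removed Lgr5 wells (51.5% and 23.9%) than of kept cells (17.2% and 14.3%). Bmp4 was so in Lgr5 mouse 1 (66.7% against 37.9%), while its shares in Lgr5 mouse 2 were nearly equal (47.8% against 46.4%). Bmp5 (62.1% and 40.3%) and Fstl1 (75.8% and 61.2%) were in a smaller share. Each of these members was more frequent in wells with Pecam1 than in those below, as Fstl1 at 92.9% against 45.8% in Lgr5 mouse 1.

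**Figure D5:**
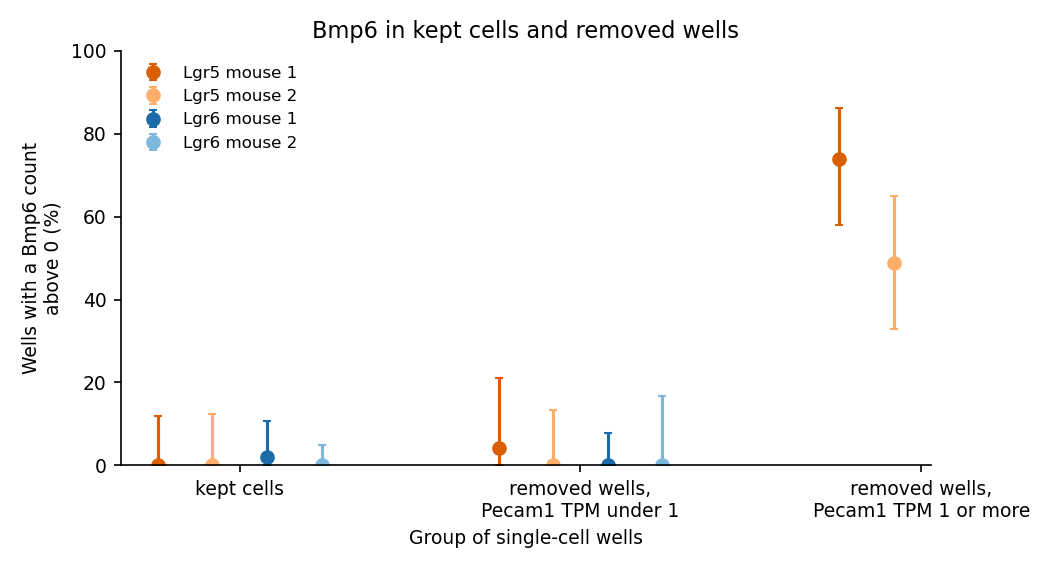
Percent of single-cell wells with a Bmp6 count above 0, with exact 95% intervals, in kept cells and in removed wells below and at or above a Pecam1 TPM of 1, by mouse. The removed wells with Pecam1 reach 73.8% and 48.8% in the Lgr5 mice, and no Lgr6 well falls in that group.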

How the data were processed

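Lung cells of 4 mice were measured by SmartSeq2. The authors deposited counts of every well, and log2(TPM + 1) of every well and, apart, of the cells they kept. The submitters' processing notes name bcl2fastq 2.17.1.14, kallisto 0.43.0 and mm10, and the annotation release is not given in the sources used here. Counts scaled by the authors were not used. Sums of counts over kept cells, 1 per mouse or 2 where a mouse was split (3 or more cells on each side), were tested in R 4.3.3 with edgeR 4.0.16 (TMM, filterByExpr, quasi-likelihood test), with the mouse as a block within mice and Benjamini-Hochberg adjustment over all genes tested. TPM were recovered with a pseudocount of 1 taken off. Alternatives used DESeq2 1.42.0, limma 3.58.1 on mean log2 values, other scaling, no filter, thinned cells, omission of single mice and other choices of cells. Acta2-lower cells alone, cells without Bmp7, and an Acta2 threshold of 10 in the Lgr6 mice were chosen after seeing the data. The fits were tested on simulated data. Python 3.11.15, numpy 2.4.6, pandas 2.3.3, scipy 1.17.1 and matplotlib 3.10.9 gave the other values. Places are from GENCODE on GRCm38.

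Named genes were the members, the genes defining groups, in each pathway list up to 2 with the highest mean TPM and any past the threshold, and genes with r of at least 0.5 to a member over cells. The members, 5 pathway lists and 11 marker lists were chosen with earlier results of these data known. Equal mouse numbers of the lines are different animals, whose deviations from the line means correlated with r = 0.04 over 14101 genes, and they were not paired. Wells with identical counts numbered 0. Pools and removed wells were left out of tests.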

Additional observations from a re-analysis of the deposited data

Results flagged for a closer look

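On summed counts scaled by TMM, the Pdgfra contrast ran opposite ways in the Lgr5 and Lgr6 mice for Fstl1 and Bmp4. For Fstl1 the log2 interaction was 2.44, and Pdgfra cells were lower in both Lgr5 mice and higher in both Lgr6 mice on that scale, while by mean TPM they were lower in Lgr6 mouse 2 as well (428 against 497). For Bmp4 it was 5.13, with the same directions on that scale, while by mean TPM Pdgfra cells were higher in Lgr5 mouse 2 (56.9 against 49.5). A single cell held 98.2%, 99.04% and 80.5% of the Bmp4 counts of the Pdgfra cells of Lgr5 mouse 2 and Lgr6 mice 1 and 2. Both were tested with edgeR and had an adjusted p of 1, so that neither difference passed.

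The 4 pools, 1 per mouse, were used in no comparison and held counts of some members above the limit of 3 that a count of 0 allows. Fstl1 exceeded it in 4 pools, with 145.8, 808, 737 and 589 TPM in the order of Lgr5 mice 1 and 2 and Lgr6 mice 1 and 2. Bmp3 exceeded it in 3 pools, with 417, 0, 2121 and 248 TPM. Bmp4 exceeded it in 2 pools, with 500 TPM in Lgr5 mouse 1 and 137.1 TPM in Lgr6 mouse 2. Bmp5 exceeded it in 2 pools, those of the Lgr5 mice, with 88.1 and 381 TPM.

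Wells that the authors removed held members at 0 in the kept cells of the Lgr5 mice. Bmp6 had 992 counts over the removed Lgr5 wells, and Bmp7 had 291.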

How the results depend on the processing

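Directions and calls were recomputed under each alternative. Some also changed the mice, since a mouse needed 3 cells on each side. By Pdgfra detection, leaving out Epcam or Sftpc cells left the 2 Lgr6 mice and a Pdgfra TPM above 1 left out Lgr5 mouse 2, and an Acta2 threshold of 10 added both Lgr5 mice. Of 99 values of members between the lines, 78 kept direction and side of the threshold, 6 kept direction and passed it, and 15 turned. By Pdgfra detection 58 of 75 held and 17 turned, and by Acta2 level 68 of 83 held, 6 passed and 8 turned, while 1 value without a test, Bmp4 at -0.41 without Lgr6 mouse 1, moved. Values that held could still differ in size, as Bmp3 by Acta2 level, 1.83 against 0.03 with a threshold of 10 and 1.30 with it in the Lgr6 mice alone, and Bmp5, -2.35 against -3.98 with a threshold of 12. Of 72 shares of cells 5 moved, namely Bmp3 in Lgr6 mouse 2 (41.1% thinned), Bmp4 in Lgr6 mouse 2 (16.4% thinned, 21.3% at a TPM above 1) and Bmp6 in Lgr6 mouse 1 (0% by either). The cause was not tested for any value below.

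Between the lines the genes called were 0 with edgeR, and 963 with DESeq2, 408 without a filter, 7 with thinned cells, 1020 with limma, 1 without Epcam or Sftpc cells, 1.3e2 (0.738% of 17743) with all wells and 0 to 34 with a mouse left out. Members called were 1 with DESeq2, 2 without a filter, 2 with limma and 1 with all wells. By Pdgfra detection the genes called were 4, and 754 with DESeq2, 25 thinned, 76 with limma, 8 without Epcam or Sftpc cells, 15 with no replicate block, 9 in the Lgr6 mice alone and 2 to 6 with a mouse left out, with 1 member by DESeq2. By Acta2 level they were 4, and 950 with DESeq2, 7 with RLE factors, 53 thinned, 753 with limma, 0 without Epcam or Sftpc cells, 0 with no replicate block, 14 with a threshold of 10, 11 with it in the Lgr6 mice alone and 0 with a threshold of 12, and members called were 3 with DESeq2 and 3 with limma. The interaction gave 305 genes with DESeq2. The mouse number as a replicate block gave 0 genes between the lines.

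Log2 fold changes that turned between the lines were as follows. Without Epcam or Sftpc cells Bmp2 was 0.91, Bmp4 1.12 and Grem1 -0.16. With all wells Bmp4 was 0.39 and Bmp5 0.93, with thinned cells Grem1 was -0.0638, and with the replicate block Bmp2 was 0.068. In Acta2-lower cells Bmp4 was 0.66, Bmp5 0.56 and Nog -1.14. With a mouse left out, the ranges were -1.40 to 1.57 for Bmp2, -0.90 to 0.0782 for Bmp4, -0.93 to 0.0832 for Bmp5, -0.47 to 10.51 for Grem1 and -0.46 to 1.42 for Nog.

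By Pdgfra detection, Bmp3 was 0.35 thinned, 1.46 with limma, 0.0589 without Epcam or Sftpc cells, 0.42 with no block and 0.52 in the Lgr6 mice. Bmp4 was -0.27 thinned and -1.08 without Bmp7 cells, Bmp5 -0.52 thinned and -0.29 in Acta2-lower cells, Bmp2 0.0443 with limma, and Fstl1 0.45 without Epcam or Sftpc cells and 0.57 in the Lgr6 mice. With a mouse left out, Bmp3 ranged from -1.53 to 0.15, Bmp4 from -0.80 to 1.54, Bmp5 from -0.22 to 0.74 and Fstl1 from -1.10 to 0.00938. By Acta2 level, Bmp2 was -1.72 thinned, -0.59 with limma, -11.22 without Epcam or Sftpc cells, -0.27 with no block, -0.32 with a threshold of 10, and from -1.31 to 1.87 in single mice. With a threshold of 12, Grem1 was -4.97 and Nog -0.67.

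The median over all genes tested moved with the fit, from 0.05 to -0.31 with DESeq2 between the lines and from -0.67 to 0.22 with limma by Pdgfra detection. By Acta2 level a single mouse leaves no residual degrees of freedom, so that its values have no test and its counts of genes were not run, and a fit of the Lgr6 mice alone is the comparison itself.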

Other observations

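Of the removed wells, 12 of 66 and 3 of 67 from Lgr5 mice held Bmp7, and so did 2 of 45 and 1 of 20 from Lgr6 mice. In Lgr5 mouse 1 it was in 10 of 42 removed wells with Pecam1 at a TPM of 1 or more (23.8%, 12.1 to 39.5) and in 2 of 24 without. In Lgr5 mouse 2 it was in 2 of 41 with Pecam1 and in 1 of 26 without. All 12 wells of Lgr5 mouse 1 were among the 40 with Ptprc at a TPM of 1 or more, as were all 3 of Lgr5 mouse 2 among its 32. Bmp2 was found in 21 of 66 removed wells of Lgr5 mouse 1, 20 of them among the 42 with Pecam1.

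The pools differed in the genes that define the groups. Acta2 stood at 0, 0, 11939 and 15212 TPM in the pools of Lgr5 mice 1 and 2 and Lgr6 mice 1 and 2, and Pdgfra at 259, 0, 0 and 0. Lgr5 stood at 0, 113.5, 0 and 0 TPM in the same order, and Lgr6 at 0, 0, 104.4 and 1.32. Bmp6, Bmp7, Grem1 and Nog had 0 counts in the 4 pools, of 353310, 204948, 66586 and 2203576 counts in all, and Bmp2 had 1 count, in the pool of Lgr6 mouse 1.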
